A study of Homo sapiens with 6 samples.

Results

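The eIF4 group of translation initiation factors was examined in PC9 cells with and without knockdown of RBM10, an RNA-binding protein that controls alternative splicing. The group was taken as 10 genes fixed by symbol (EIF4E, EIF4EBP1, EIF4G1, EIF4G2, EIF4G3, EIF4A1, EIF4A2, EIF4A3, EIF4B and EIF4H) of 16306 genes in the gene table, with their 83 transcripts of 76563 in the transcript table. EIF4H was included because it is a reported splicing target of RBM10. PC9 is a human lung adenocarcinoma line with an activating deletion in EGFR. RNA-seq covered 3 libraries of PC9 cells carrying a negative control shRNA (sh-NC) and 3 libraries of PC9 cells carrying an shRNA against RBM10 (shRBM10), with no drug or time point in the labels. The sources list 2 RBM10 shRNAs without naming the one that was sequenced, and they do not say whether the sequenced lines were pools or clones or whether libraries of a group came from separate cultures, so that p-values measure the spread between these libraries, which may be technical. Only 1 shRBM10 column matches a sample title (library A, replicate 1), and the other shRBM10 columns, libraries B and C, were used without a replicate number.

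Initiation of most mRNAs starts at the 5′ cap, where the eIF4F complex assembles from the cap-binding protein eIF4E, a scaffold of the eIF4G family and the RNA helicase eIF4A. The cofactors eIF4B and eIF4H bind RNA and stimulate the helicase, and 4E-BP1, encoded by EIF4EBP1, holds eIF4E away from the scaffold until the kinase mTORC1 phosphorylates it. In epithelial tumor cells this step receives the signals of growth factor receptors such as EGFR through mTORC1 and the MNK kinases.

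EIF4H (Entrez gene 7458; GRCh38 chromosome 7, plus strand, 74174245 to 74197101) had 2 transcripts in the table, NM_022170 and NM_031992. They differ by exon 5, a coding cassette exon of 60 bases or 20 codons at chr7:74190247-74190306, which NM_022170 includes and NM_031992 skips. It keeps the reading frame. The sequences below, from the GENCODE release 29 transcripts, read 5′ to 3′ and show exon 5 in capitals between the last 20 bases of the exon before it and the first 20 bases of the exon after it, followed by the junction that forms when exon 5 is skipped.
EIF4H with exon 5: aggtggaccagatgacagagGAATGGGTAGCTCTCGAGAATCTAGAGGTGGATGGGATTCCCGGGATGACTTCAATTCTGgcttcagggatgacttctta
EIF4H without exon 5: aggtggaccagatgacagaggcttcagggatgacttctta

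The share of EIF4H counts assigned to the transcript with exon 5 was higher in every shRBM10 library than in every sh-NC library. NM_022170 took 28.2%, 26.5% and 24.2% of the EIF4H counts in sh-NC replicates 1 to 3. It took 33.5%, 34.0% and 32.5% in shRBM10 libraries A, B and C. The groups did not overlap, and the smallest gap was that between sh-NC replicate 1 and library C. The mean share was 26.3% ± 2.00 (SD, n = 3) for sh-NC, and for shRBM10 it was 33.3% ± 0.774 (SD, n = 3). The difference was 7.02 percentage points, and the two-sided exact permutation test gave p = 0.1, which no design of 3 against 3 libraries can go below. The 95% Wilson interval of a single library's share reached between 0.811 and 1.05 points to either side, for counting error only. It treats every EIF4H count as assigned with certainty. The error of dividing shared reads between the transcripts is left out, so the interval is too narrow. The background was 22009 transcript shares of 5% to 95% in genes with a mean count of at least 100. Of these, 14.2% had groups that did not overlap, and 7.81% did so with a difference at least as large as that of EIF4H. No limit was set on a transcript's own count. EIF4H had 6749 to 10788 counts in a library, so that the background also holds shares that rest on far fewer counts. The ratio of included to skipped transcript was 0.393, 0.360 and 0.320 in sh-NC against 0.505, 0.515 and 0.481 in shRBM10. The reads of both transcripts were divided between them by an estimate, since they share all other exons, and in bulk RNA fewer cells with a transcript and less of it per cell cannot be told apart.

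**Figure D1:**
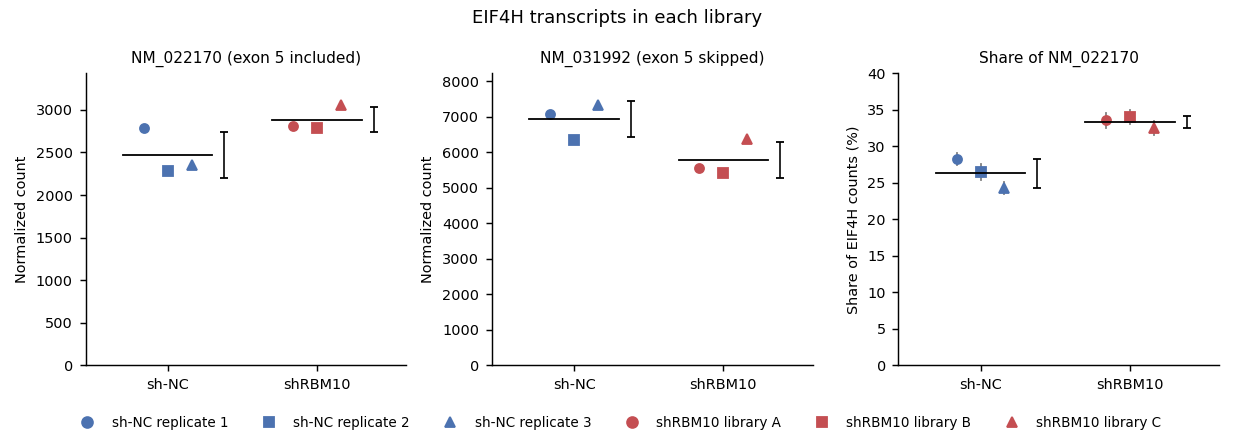
Normalized counts of the EIF4H transcripts with and without exon 5 (left and middle) and the share of EIF4H counts in percent taken by the transcript with exon 5 (right), 1 point per library; horizontal lines are group means, black bars are SD over 3 libraries and grey bars on the right are 95% Wilson intervals. The 3 shRBM10 shares lie between 32.5% and 34.0%, all above the 3 sh-NC shares of 24.2% to 28.2%. The intervals leave out the error of dividing shared reads between the transcripts and are too narrow.

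The counts of the transcripts themselves differed little, in opposite directions. The normalized count of NM_022170 (the count scaled by the TMM method) was 2782, 2288 and 2349 in sh-NC against 2807, 2792 and 3063 in shRBM10. Those groups were apart by a narrow margin. NM_031992 had 7075, 6357 and 7342 normalized counts in sh-NC against 5563, 5423 and 6370 in shRBM10, where library C overlapped with sh-NC replicate 2. The log2 fold changes were 0.22 for NM_022170 (standard error, SE, 0.16; adjusted p = 0.738) and -0.26 for NM_031992 (SE 0.17, adjusted p = 0.70) by edgeR's quasi-likelihood test, so that neither passed. The test of transcript usage, which asks whether the transcripts of a gene differ in fold change, gave EIF4H an unadjusted p of 0.665 with edgeR, where 2.78% of genes were under 0.05, and 1.00 after adjustment, with a log2 value of 0.34 for the exon 5 transcript relative to the gene. By limma's diffSplice the unadjusted p was 0.0333 and the adjusted p 0.820, with 6.03% of the 8348 genes at an unadjusted p under 0.05. The usage test called 0.0958% of genes with edgeR and 0% with limma. Leaving out each library in turn kept the difference in the exon 5 share between 5.99 and 7.98 points.

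At the gene level EIF4H differed little. Its normalized count was 9784, 9242 and 9687 in sh-NC against 8198, 8068 and 9406 in shRBM10. Libraries A and B lay below all sh-NC libraries and library C within them. The mean was 9571 ± 289 (SD, n = 3) for sh-NC against 8557 ± 738 for shRBM10, and the log2 fold change by edgeR was -0.16 (SE 0.23, adjusted p = 0.652). Leaving out sh-NC replicate 2 made it -0.27 and leaving out library C -0.28, with adjusted p-values of 0.30 and 0.319. The 3 genes with the most similar log2 profile to EIF4H over the 6 libraries were PCDH1 (Pearson r = 0.996), SRMS (r = 0.995) and FBXL18 (r = 0.995), of 10089 genes with a mean count of at least 100. They were picked as the highest of all these correlations, each over only 6 libraries, and a relation to EIF4H was not tested.

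RBM10, the targeted gene, had 1431, 1183 and 1469 normalized counts in sh-NC against 537, 515 and 672 in shRBM10. Every shRBM10 library was below every sh-NC library. Its log2 fold change was -1.24 (SE 0.23), and the adjusted p of 0.10 by edgeR missed the threshold of 0.05, while DESeq2 gave an adjusted p of 0.00134 and edgeR gave 0.0487 without sh-NC replicate 2.

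Across the 10 genes, 6 were higher and 4 lower in shRBM10, and the median of their log2 fold changes was 0.13 against 0.03 for all genes tested. By edgeR 0 of the 10 were called (adjusted p under 0.05 and absolute log2 fold change over 1), where 0.0158% of all 12620 tested genes were. Limma-voom also called 0 and DESeq2 called 1, EIF4A2, against 4.19% of all genes. At an unadjusted p under 0.05 with edgeR there were 3 of the 10 (EIF4A2, EIF4G3 and EIF4EBP1), beside 24.3% of all genes. No overlap between groups was seen for 5 of the 10 genes, EIF4A2, EIF4G3 and EIF4B higher and EIF4A1 and EIF4EBP1 lower, beside 30.1% of all genes. With 10 genes, 1 gene more or less moves such a share by 10 percentage points. All 10 passed the filter on low counts.

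**Figure D2:**
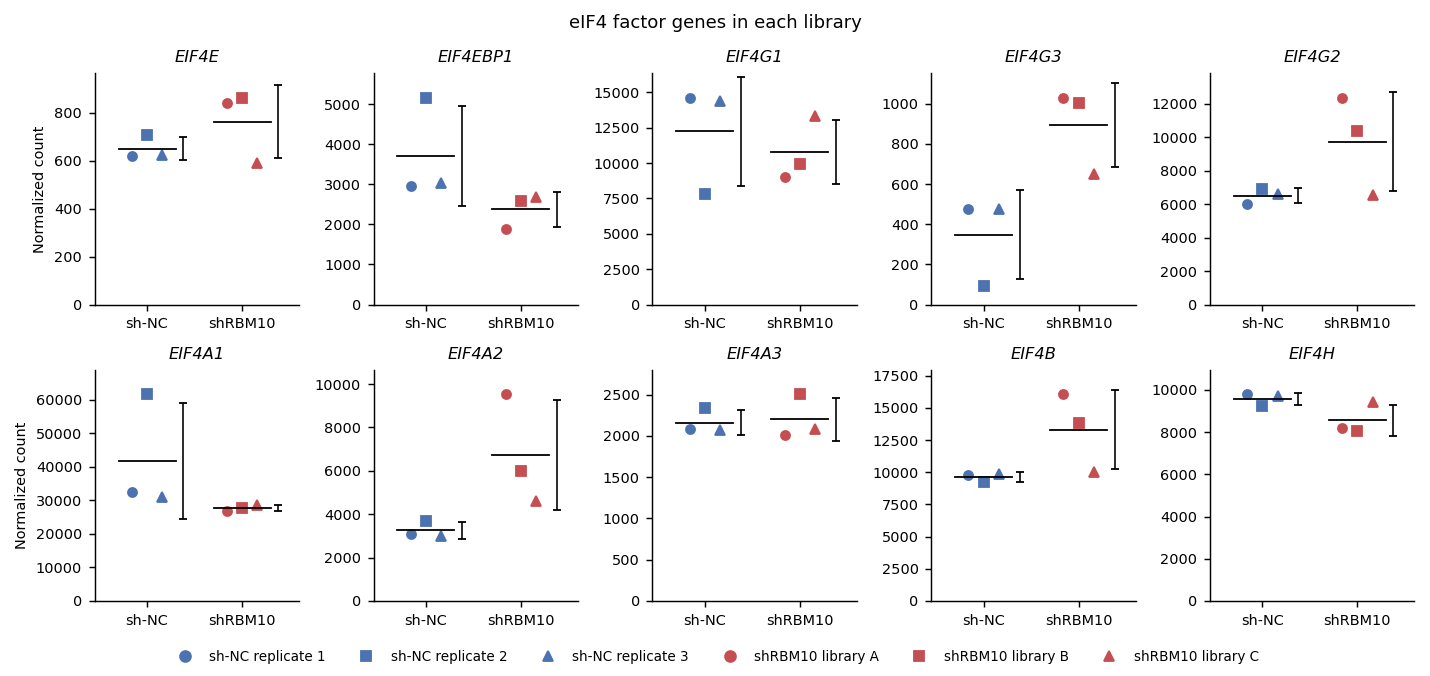
Normalized counts of the 10 eIF4 genes in each library, with the vertical axis of each panel starting at 0; points are libraries, horizontal lines are group means and bars are SD over 3 libraries. EIF4A2, EIF4G3 and EIF4B lie higher in all 3 shRBM10 libraries and EIF4A1 and EIF4EBP1 lower, and sh-NC replicate 2 stands apart for EIF4A1, EIF4EBP1, EIF4G1 and EIF4G3.

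Compared per length, the helicase EIF4A1 was by far the most abundant and the scaffold EIF4G3 the least. The authors' mean TPM, given without a spread, was 1543 for EIF4A1 in sh-NC. It was 371 for EIF4EBP1 and 261 for EIF4H, followed by 166 for EIF4B and 162 for EIF4G1, 119 for EIF4A2 and 112 for EIF4G2, and 78.0 for EIF4A3. EIF4E came at 18.0 and EIF4G3 at 4.06. In shRBM10 the authors' mean TPM was 1294 for EIF4A1, 293 for EIF4A2, 291 for EIF4EBP1, 265 for EIF4H and 261 for EIF4B. It was 196 for EIF4G2, 151 for EIF4G1, 91.8 for EIF4A3, 24.7 for EIF4E and 10.9 for EIF4G3. EIF4A2 thus moved from the sixth place to the second in these means, and EIF4A1, EIF4A3, EIF4E and EIF4G3 kept their places. Neighbours such as EIF4B and EIF4G1 in sh-NC, or EIF4A2 and EIF4EBP1 in shRBM10, cannot be ranked without a spread. The TPM means and the normalized counts need not move alike between groups. For EIF4H the mean TPM was slightly higher in shRBM10, while the mean normalized count was lower (8557 against 9571).

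Of the cap-binding pair, EIF4E overlapped between groups and EIF4EBP1 did not. EIF4E (chromosome 4), the cap-binding subunit, had 622, 707 and 625 normalized counts in sh-NC. It had 840, 862 and 591 in shRBM10. Libraries A and B were above all sh-NC libraries and library C was below them. By edgeR the log2 fold change was 0.23 (SE 0.24, adjusted p = 0.541), and it turned to -0.41 (adjusted p = 0.321, edgeR) when each library's trend of counts on the GC content of genes was removed, where the groups no longer overlapped and shRBM10 was lower. EIF4EBP1 (chromosome 8), the repressor of EIF4E, had 2952, 5156 and 3039 normalized counts in sh-NC against 1878, 2591 and 2674 in shRBM10. All shRBM10 libraries were lower, and sh-NC replicate 2 was far above the rest. Its log2 fold change was -0.64 (SE 0.28, adjusted p = 0.202, edgeR), -0.41 without sh-NC replicate 2 and -0.29 with the GC trend removed, after which the groups overlapped. EIF4EBP1 has the highest GC content of the 10 genes at 65.5%, and EIF4E has the lowest at 42.6%.

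The scaffolds differed among themselves. EIF4G1 (chromosome 3), the main eIF4F scaffold, had 14596, 7820 and 14350 normalized counts in sh-NC. It had 9002, 9944 and 13301 in shRBM10. Replicate 2 of sh-NC was the lowest of all 6 libraries, and the groups overlapped. Its log2 fold change was -0.19 (SE 0.31, adjusted p = 0.704, edgeR), -0.51 (adjusted p = 0.183) when sh-NC replicate 2 was left out and 0.03 with the GC trend removed.

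EIF4G3 (chromosome 1), a paralog that can take the place of EIF4G1 in eIF4F, was the gene of the 10 with the largest fold change by edgeR with all libraries. Its normalized count was 475, 93.1 and 478 in sh-NC against 1029, 1003 and 651 in shRBM10. The groups did not overlap, and sh-NC replicate 2, with only 68 estimated counts, was the lowest. By edgeR its log2 fold change was 1.35 (SE 0.51, unadjusted p = 0.0249, adjusted p = 0.175). Leaving out sh-NC replicate 2 made it 0.82 (adjusted p = 0.137).

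EIF4G2 (chromosome 11), a scaffold that lacks the eIF4E-binding region and serves cap-independent or alternative initiation, had 6014, 6906 and 6616 normalized counts in sh-NC. It had 12347, 10346 and 6549 in shRBM10. Libraries A and B were above all sh-NC libraries, while library C lay among them. The fold change on the log2 scale was 0.58 (SE 0.28, adjusted p = 0.223, edgeR), 0.29 with the GC trend removed and 0.38 (adjusted p = 0.642) without library A.

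Of the helicases, EIF4A2 was higher in shRBM10 and EIF4A1 lower. EIF4A2 (chromosome 3, 186783205 to 186789900 on the plus strand) had 3068, 3679 and 3004 normalized counts in sh-NC. It had 9522, 6008 and 4611 in shRBM10. Every shRBM10 library was above every sh-NC library, and the shRBM10 libraries differed from each other by more than the sh-NC libraries did. The mean was 3251 ± 373 (SD, n = 3) for sh-NC against 6714 ± 2530 (SD, n = 3) for shRBM10. Its log2 fold change was 1.05 (SE 0.30, unadjusted p = 0.00557, adjusted p = 0.153) by edgeR and 1.01 (adjusted p = 0.0378) by DESeq2, which called it. It was 0.73 with the GC trend removed, with an adjusted p of 0.187, and without single libraries it ranged from 0.71 (adjusted p = 0.566, without library A) to 1.21 (adjusted p = 0.0594, without library C). The groups of EIF4A2 stayed apart under each of the 5 scalings tried, as did those of EIF4A1 and EIF4G3.

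EIF4A1 (chromosome 17, 7572706 to 7579005 on the plus strand), the predominant helicase of eIF4F, had 32484, 61579 and 31002 normalized counts in sh-NC. It had 26788, 27822 and 28461 in shRBM10. The shRBM10 libraries lay close together and below all of sh-NC, and sh-NC replicate 2 had 1.94 times the mean of the other sh-NC libraries. By edgeR its log2 fold change was -0.59 (SE 0.34, adjusted p = 0.286), and -0.28 (adjusted p = 0.266) without that library. EIF4A3 (chromosome 17), the helicase of the exon junction complex rather than of eIF4F, had 2081, 2336 and 2066 against 2016, 2503 and 2087 normalized counts. Those groups overlapped under each scaling tried, and its log2 fold change of 0.03 (SE 0.21, adjusted p = 0.941, edgeR) was smaller than its error. EIF4A1 and EIF4A2 are similar in sequence and several of the 10 genes have processed pseudogenes, so how reads that fit several genes were counted could shift their values.

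EIF4B (chromosome 12), the other RNA-binding cofactor of the helicase, had 9813, 9217 and 9903 normalized counts in sh-NC. It had 16050, 13860 and 10021 in shRBM10. The sh-NC libraries lay close together, and library C exceeded them only narrowly. Its log2 fold change was 0.46 (SE 0.26, adjusted p = 0.279, edgeR), and the groups overlapped when library sizes alone were used for scaling. Without library A it was 0.31 (adjusted p = 0.686). Scaling by library size moved the median log2 fold change of all genes to 0.16.

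**Figure D3:**
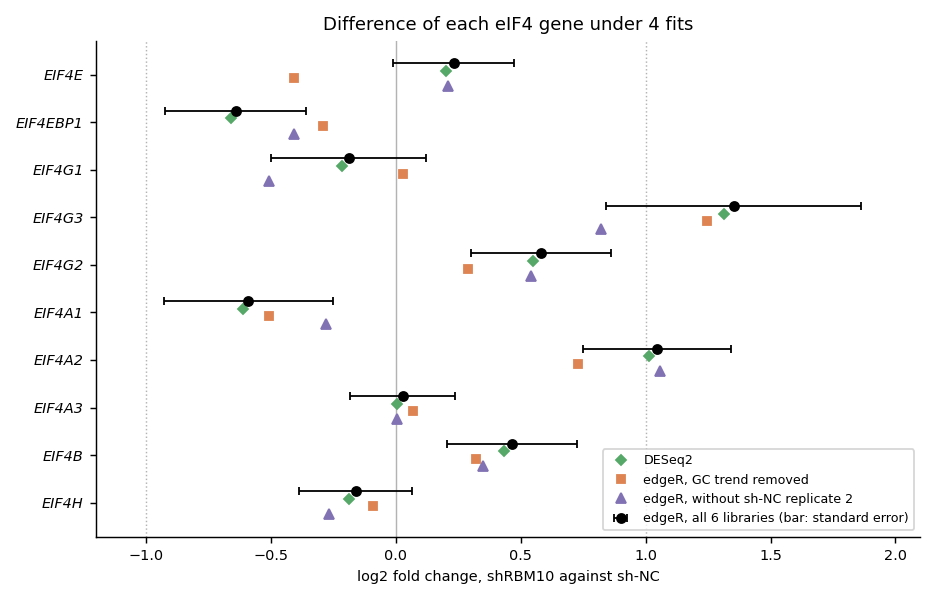
Log2 fold change of each eIF4 gene (shRBM10 against sh-NC) by edgeR with all 6 libraries (black, bars are standard errors), by DESeq2, by edgeR with the GC trend removed and by edgeR without sh-NC replicate 2; dotted lines mark the fold limit of 1. EIF4A2 lies between 0.73 and 1.06 in the 4 fits and EIF4G3 between 0.82 and 1.35, while EIF4E and EIF4G1 change sign with the GC trend removed.

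Ratios of a pair of genes within a library do not depend on library scaling. As counted, the 4 ratios compared were lower in shRBM10 and their groups did not overlap, but in each pair the gene above the line has the higher GC content. With the GC trend removed, an alternative chosen after seeing the data, 3 ratios stayed lower without overlap and that of EIF4EBP1 to EIF4E did not. EIF4A1 counts were 10.6, 16.7 and 10.3 times those of EIF4A2 in sh-NC against 2.81, 4.63 and 6.17 times in shRBM10. The mean log2 ratio was 3.61 ± 0.39 (SD, n = 3) for sh-NC and 2.11 ± 0.57 (SD, n = 3) for shRBM10, a difference of -1.50. EIF4G1 counts were 30.7, 84.0 and 30.0 times those of EIF4G3 in sh-NC against 8.75, 9.91 and 20.4 times in shRBM10, a log2 difference of -1.82. The ratio of EIF4EBP1 to EIF4E was 4.74, 7.30 and 4.86 in sh-NC against 2.24, 3.00 and 4.53 in shRBM10, a log2 difference of -0.82, with library C close to sh-NC replicate 1. With the GC trend removed this ratio was 3.77, 4.29 and 3.84 in sh-NC against 4.93, 4.76 and 3.52 in shRBM10, so that the groups overlapped and the log2 difference was 0.14 (two-sided exact permutation test, p = 0.4). The other log2 differences were then -1.15 for EIF4A1 to EIF4A2, -1.47 for EIF4G1 to EIF4G3 and -0.40 for EIF4H to EIF4B. EIF4H and EIF4B had nearly equal counts in sh-NC, with ratios of 0.997, 1.00 and 0.978. In shRBM10 that ratio was 0.511, 0.582 and 0.939, a log2 difference of -0.60. As counted, each ratio gave p = 0.1 in the two-sided exact permutation test (0.1 also after Benjamini-Hochberg adjustment over the 4 ratios), the smallest value this design allows.

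**Figure D4:**
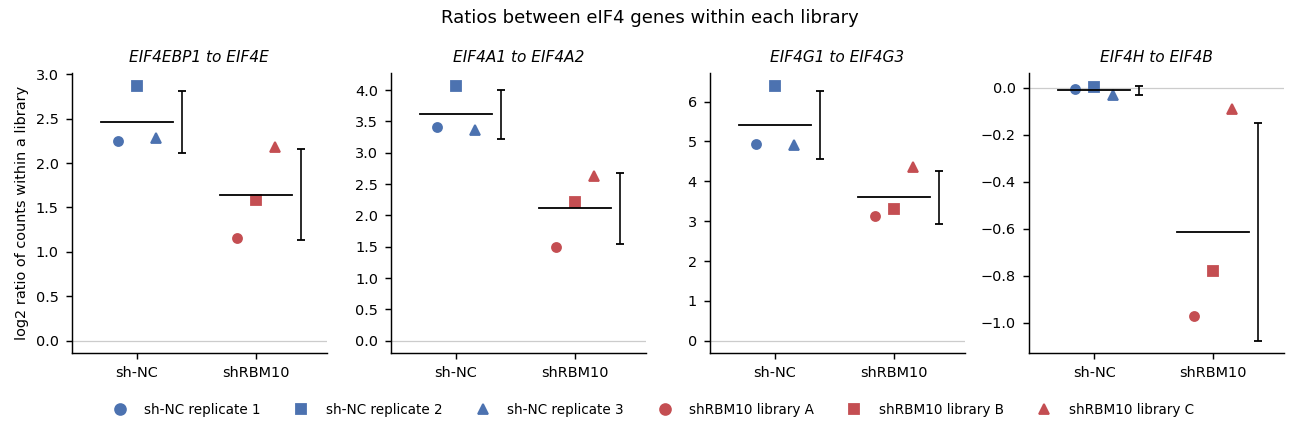
Log2 ratio of the counts of a pair of eIF4 genes within each library, 1 point per library; horizontal lines are group means and bars are SD over 3 libraries. The ratios are of counts with no GC correction: all 4 are lower in the 3 shRBM10 libraries, with library C the closest to sh-NC, and with the GC trend removed that of EIF4EBP1 to EIF4E overlaps between groups (log2 difference 0.14).

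A few libraries set much of these values. Library C was the shRBM10 library nearest to sh-NC replicates 1 and 3 for 10 of the 10 genes, and for 66.2% of all genes. The log2 ratio of libraries A and B to those replicates fell with the GC content of genes (Spearman correlation across 12559 genes of -0.73 and -0.66), and that of library C did not (0.02). These are descriptions, since genes are not independent. Against the same replicates, the log2 ratio of sh-NC replicate 2 correlated with transcript length (Spearman correlation across genes of -0.65). Among the 10 genes that library was 1.72 times the other sh-NC libraries for EIF4EBP1, whose longest transcript has 1020 bases, and 1.94 times for EIF4A1, with 1756 bases. It was at 0.540 of them for EIF4G1, with 5667 bases, and at 0.195 for EIF4G3, with 6196 bases. EIF4G2, with 4001 bases, was at 1.09, above EIF4H with 2679 bases, which does not follow that order of lengths. EIF4E was at 1.13, and its longest annotated transcript has 11523 bases. NM_001968 took 96.9% of the EIF4E counts, and its own length is not given here. The place of EIF4E in that order was therefore not tested. EIF4H, at 0.949, and EIF4B, at 0.935, hardly differed in sh-NC replicate 2. The part of GC content and of transcript length in the differences above was not tested beyond the values given. The exon 5 share of EIF4H was 32.5% in library C and 33.5% and 34.0% in libraries A and B, and its difference was 7.10 points without sh-NC replicate 2. With the GC trend removed, edgeR called 0 of the 10 genes, beside 0.00796% of all genes, and 1 of the 10, EIF4A2, had an unadjusted p under 0.05, beside 18.4%, and the groups of 5 did not overlap, beside 30.4%.

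The other eIF4 transcripts were described as far as they took at least 5% of a gene's transcript counts, which 18 of the 83 did. Of 43 tested transcripts, edgeR called 0, as it did for all 38286 (0%). An unadjusted p under 0.05 by edgeR was found for 2, beside 8.97% of all transcripts. They were NM_001967 of EIF4A2 (log2 fold change 1.10, adjusted p = 0.405) and NM_001418 of EIF4G2 (0.65, adjusted p = 0.549). EIF4A2 and EIF4EBP1 had a single transcript in the table, and in EIF4A1 and EIF4E a single transcript took 99.7% and 96.9%. Of the 14 member shares between 5% and 95%, the groups of 3 (21.4%) did not overlap, beside 14.2% of all such shares: the complementary pair of EIF4H and XM_011542375 of EIF4G3. The shares of the EIF4H pair add up to 100% and so are 1 observation. The last had shares of 15.1%, 29.2% and 8.23% in sh-NC against 0.948%, 3.55% and 1.67% in shRBM10, on 79.1 estimated counts or fewer in each library, and EIF4G3 reads were spread over 58 transcripts.

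In EIF4B and EIF4G2, as in EIF4H, the main transcripts differ by an in-frame coding segment, and their shares did not separate the groups. In EIF4B, NM_001300821 extends exon 10 by 15 bases at chr12:53034710-53034724 that NM_001417 lacks, shown in capitals between 20 bases on either side.
EIF4B long form: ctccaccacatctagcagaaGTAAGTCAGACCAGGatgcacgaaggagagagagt
EIF4B short form: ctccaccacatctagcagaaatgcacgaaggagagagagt

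The long form of EIF4B took 11.8%, 11.5% and 11.7% of the EIF4B counts in sh-NC. It took 10.5%, 12.0% and 9.54% in shRBM10, on both sides of the sh-NC values (two-sided exact permutation test, p = 0.4). In EIF4G2, NM_001418 includes exon 14, on the minus strand at chr11:10801661-10801774 and printed in full in capitals as transcribed, and NM_001042559 skips these 114 bases or 38 codons.
EIF4G2 exon 14: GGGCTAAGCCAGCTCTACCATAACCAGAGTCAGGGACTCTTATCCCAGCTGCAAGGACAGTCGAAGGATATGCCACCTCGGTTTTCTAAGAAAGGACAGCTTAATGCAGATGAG

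The form that skips exon 14 took 15.1%, 15.2% and 15.1% of the EIF4G2 counts in sh-NC against 12.7%, 16.2% and 13.6% in shRBM10 (two-sided exact permutation test, p = 0.4). The sh-NC libraries were almost equal and the shRBM10 libraries fell on both sides of them. EIF4A3 divided nearly evenly between NM_014740, with 49.6% to 52.9% in sh-NC and 50.2% to 52.1% in shRBM10, and XM_011525522. EIF4G1 reads went mainly to NM_198242 (40.2% to 44.4% in sh-NC and 37.2% to 47.2% in shRBM10), NM_198241 and NM_182917. NM_198244 of EIF4G1 was estimated at 10.4% in sh-NC replicates 1 and 3 and listed at 0 in replicate 2, and was put at 8.36%, 14.7% and 0.943% in shRBM10 libraries A, B and C, a spread within each group that exceeds any difference between them. The usage test gave adjusted p-values of 1.00 by edgeR for all 7 eIF4 genes it covered.

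Genes that act around eIF4F were read from lists fixed by function, and edgeR called 0 genes in any of them, beside 0.0158% of all genes. Of 17 tested cap-binding and eIF4F partners, 12 were higher, with a median log2 fold change of 0.34. An unadjusted p under 0.05 with edgeR was reached by 6, all higher, beside 15.7% of all genes that were higher at that level. The groups of 5 did not overlap, also all higher, beside 13.8% of all genes. PDCD4, which inhibits the helicase eIF4A, had 345, 118 and 340 normalized counts in sh-NC against 708, 659 and 407 in shRBM10 (log2 fold change 1.14, adjusted p = 0.17, edgeR). Its value was 0.70 without sh-NC replicate 2 and 0.49 with the GC trend removed. NCBP2, the small subunit of the nuclear cap-binding complex, had a log2 fold change of 0.73 (adjusted p = 0.172), and 0.24 with the GC trend removed. DESeq2 called 1 gene of this list, DDX3X, a helicase that acts in initiation, beside 4.19% of all genes. The groups of DDX3X overlapped. Its log2 fold change was 1.43 (adjusted p = 0.158, edgeR), and 0.77 with the GC trend removed. With the GC trend removed the median of the list was 0.00. An unadjusted p under 0.05 with edgeR was then found for 0 of its genes, beside 18.4% of all genes.

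The list of mTORC1 and eIF4E kinase genes leaned the other way. Of 17 tested, 7 were higher and 10 lower, and 5 had an unadjusted p under 0.05, all lower, beside 8.6% of all genes lower at that level. MKNK1, which encodes a kinase of eIF4E, had 1061, 1306 and 1086 normalized counts in sh-NC against 753, 567 and 714 in shRBM10. All shRBM10 libraries were lower, with a log2 fold change of -0.76 (SE 0.23, adjusted p = 0.153, edgeR) and -0.69 with the GC trend removed. MKNK2, its paralog, had 2967, 2715 and 3245 against 1619, 1681 and 2175 (-0.71, adjusted p = 0.156, and -0.38 with the GC trend removed). MLST8, a subunit shared by the mTOR complexes, had a log2 fold change of -0.83, and AKT1S1, an mTORC1 inhibitor, had -0.64, which were -0.50 and -0.32 with the GC trend removed. By edgeR and by DESeq2, 0 genes of this list were called, beside 0.0158% and 4.19% of all genes. With the GC trend removed, 2 had an unadjusted p under 0.05, both lower, beside 18.4% of all genes in either direction.

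The other translation lists held differences in both directions. Of 34 other initiation factors, 13 were higher and 21 lower. At an unadjusted p under 0.05 with edgeR 5 were higher and 4 lower, beside 15.7% and 8.6% of all genes. With the GC trend removed 1 was higher and 9 lower, beside 18.4% of all genes in either direction. In 2 genes every shRBM10 library was above sh-NC and in 10 every one was below, beside 13.8% and 16.2% of all genes. DESeq2 called 1 of the 34 genes, beside 4.19% of all genes. EIF2A, a factor that can deliver the initiator tRNA in an alternative way, had 753, 712 and 966 normalized counts in sh-NC against 2362, 2037 and 1146 in shRBM10 (log2 fold change 1.19, adjusted p = 0.144 by edgeR and 0.0216 by DESeq2, which called it). It was 0.43 with the GC trend removed. EIF2S3, the gamma subunit of eIF2, had 0.77 and 0.04 in these fits. EIF2B5, the catalytic subunit of the exchange factor of eIF2, had -0.71 and -0.66, and EIF3C, a core subunit of eIF3 with a near-identical copy in the genome, had -0.58 and -0.47. Of 6 eIF2 kinases and phosphatase subunits, 3 were higher and 1 lower at an unadjusted p under 0.05, beside 15.7% and 8.6% of all genes. With the GC trend removed these were 1 and 0, beside 18.4% of all genes in either direction. DESeq2 called 1 of the 6 genes, beside 4.19% of all genes. EIF2AK3, the kinase PERK of endoplasmic reticulum stress, had 99.8, 30.1 and 92.9 normalized counts in sh-NC against 294, 243 and 118 in shRBM10 (1.54, adjusted p = 0.156 by edgeR and 0.0400 by DESeq2, which called it). It was 1.09 without sh-NC replicate 2 and 0.87 with the GC trend removed. EIF2AK4, the amino acid sensor GCN2, had 0.84 and PPP1R15A, which directs a phosphatase to eIF2, had -0.63, which were 0.42 and -0.38 with the GC trend removed.

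Among 21 genes of the exon junction complex and nonsense-mediated decay, the partners of EIF4A3, the groups of 7 did not overlap, all lower in shRBM10, beside 16.2% of all genes. At an unadjusted p under 0.05 with edgeR there were 1 higher and 2 lower, beside 15.7% and 8.6% of all genes. With the GC trend removed there were 1 and 4, beside 18.4% of all genes in either direction. PYM1, which removes exon junction complexes from mRNA, had a log2 fold change of -0.82. It was -0.51 without sh-NC replicate 2 and -0.81 with the GC trend removed. SMG9, a subunit of the SMG1 kinase complex, had -0.54, which was -0.65 without sh-NC replicate 2 and -0.25 with the GC trend removed. Of 11 elongation and release factors, 3 were higher and 8 lower. An unadjusted p under 0.05 with edgeR was reached by 1 of the higher genes and 0 of the lower, beside 24.3% of all genes. The groups of 2 did not overlap, beside 30.1%.

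**Figure D5:**
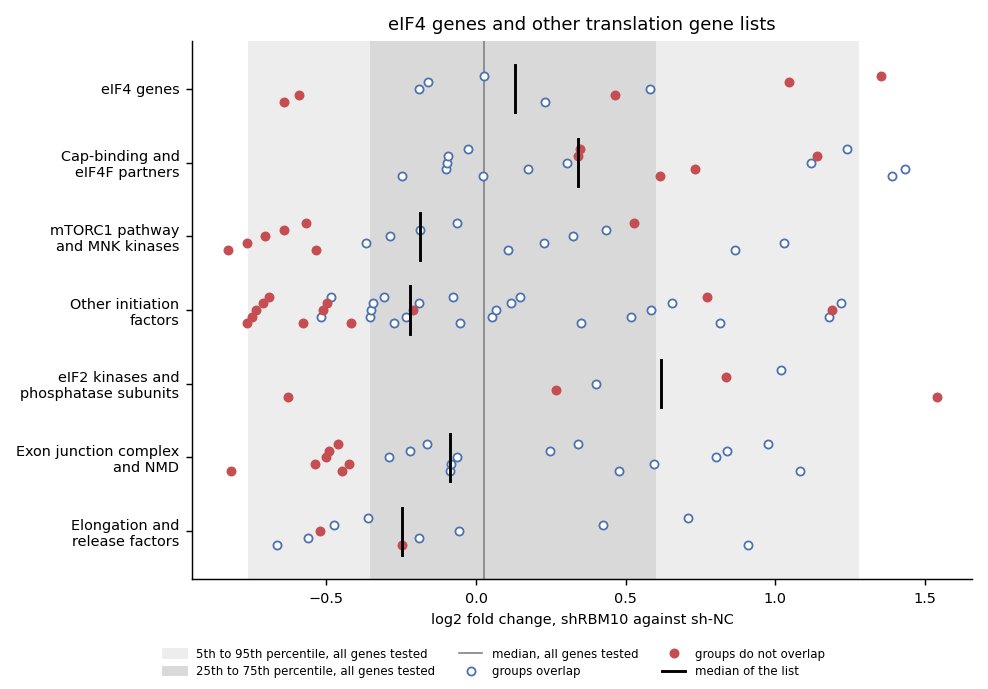
Log2 fold change (shRBM10 against sh-NC, edgeR) of each tested gene in the eIF4 group and in 6 other translation lists; filled points are genes whose groups do not overlap, black lines are list medians and grey bands hold the middle of all 12620 tested genes (5th to 95th and 25th to 75th percentile). The eIF4 median is 0.13 and that of the cap-binding partners is 0.34, while the median of the other initiation factors is -0.22.

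The identity of the cells was checked against marker genes. The epithelial keratins KRT7, KRT8, KRT18 and KRT19 and EPCAM had at least 4561 counts in every library, and the summed level of the epithelial list lay between 33127 and 41062 CPM (counts scaled to the library total) in sh-NC and between 26740 and 37274 in shRBM10. Other genes of that list were low in sh-NC replicate 2. EGFR had 1890 counts there against 13592 and 14601 in sh-NC replicates 1 and 3. CDH1 had 1224 against 3575 and 3524, and MUC1 had 216 against 462 and 416. In shRBM10, EGFR had 11026 to 14523 counts, CDH1 3111 to 4373 and MUC1 376 to 685. The lung adenocarcinoma marker NKX2-1 had at most 2 counts in a library, and NAPSA had 9 to 17. The labels' protocol text speaks of retinas. Of 14 retina markers, 5 were at 0 or not listed, and the list summed to 5.83 to 6.87 CPM in sh-NC and 5.00 to 6.46 CPM in shRBM10, mostly from NRL. The list of fibroblast markers summed to 2.36 to 7.35 in sh-NC and 6.38 to 11.4 in shRBM10. Of 8 blood and endothelial markers, 3 were tested and all were lower in shRBM10, with CDH5 at -1.38 and VWF at -1.31. VWF rested on few counts, 27, 11 and 18 in sh-NC against 5, 9 and 9 in shRBM10. CD68 was at -0.27 and its groups overlapped. The list summed to 122 to 139 CPM in sh-NC and 107 to 135 CPM in shRBM10. Most of this came from CD68, with 1795 to 2442 counts in a library. DESeq2 called CDH5. CDH5 had 177, 61 and 176 estimated counts in sh-NC against 40, 62 and 57 in shRBM10, PECAM1 had at most 3 counts in a library, and the part of any such cells in the eIF4 values was not tested. PDE6A, a retina marker, had 7 to 13 counts in sh-NC and 17 to 33 in shRBM10.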

How the data were processed

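RNA of 6 PC9 libraries, 3 sh-NC and 3 shRBM10, was sequenced by BGI-Tech. The authors deposited estimated counts per gene and per RefSeq transcript, and TPM with group means. The submitters' processing notes name the build hg38, and the aligner and the counting tool are not given in the sources used here. The labels' protocol names 2 library kits, 1 of them directional, without assigning them, so the use of strand in counting is not known. Of the deposited estimated counts, 87.5% of the gene values and 41.1% of the transcript values were whole numbers (tolerance 1e-06). The other 18 per-library columns and 6 columns of group means in each table were not used. Columns were matched to samples by title, and for libraries B and C only the group could be read. Totals ranged from 16606401 to 18864241 counts per library.

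Counts were rounded, filtered with filterByExpr, normalized by TMM and tested with edgeR's quasi-likelihood test (edgeR 4.0.16, limma 3.58.1, R 4.3.3) over all 12620 genes or 38286 transcripts, with Benjamini-Hochberg adjustment over all of them. Transcript usage was tested with diffSpliceDGE and Simes p-values, after the scripts had been tested on simulated data. The authors' mean TPM was copied for levels between genes. Exons, sequences, coordinates and GC content came from GENCODE release 29 (GRCh38), and 99.5% of tested genes had a GC value. DESeq2 1.42.0, limma-voom, other scalings and filters, a GC trend offset (lowess span 0.3) and leaving out libraries were alternatives. The members and lists were chosen with earlier results of these data known. Genes named are the 10 members, RBM10, transcripts with a mean share of at least 5%, up to 4 genes per list with the smallest unadjusted p under 0.05 and groups that do not overlap, and the 3 genes most like EIF4H. Genes named as called by DESeq2 were chosen after their values were seen.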

Additional observations from a re-analysis of the deposited data

How the results depend on the processing

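Of the 10 eIF4 genes, edgeR called 0 under every normalization, filter and left-out library tried and limma-voom called 0. DESeq2 called 1 (EIF4A2), and an unadjusted p under 0.05 with the fold limit gave 2. For all genes the count of 2 became 0 with library size only, 31 without a filter on low counts, 537 with DESeq2, 1 with the GC trend removed and 1465 at an unadjusted p. Leaving out libraries gave 0 to 23 genes, with 23 without sh-NC replicate 2, 5 without sh-NC replicate 1 and 0 without any of the others. The 8 genes with a called transcript usage became 0 with limma's diffSplice and 0 with at least 10 counts in every library, and 5 to 14 when libraries were left out, with 14 without sh-NC replicate 2 and 5 without library B. The causes were not tested. Signs turned for EIF4E (-0.41) and EIF4G1 (0.030) with the GC trend removed, and for EIF4A3 without sh-NC replicate 1, sh-NC replicate 3 or library B (-0.0015, -0.0068 and -0.075, in a leave-one-out range of -0.075 to 0.087). The ratio of EIF4EBP1 to EIF4E turned from -0.82 to 0.14 (log2) with the GC trend removed, an alternative added after seeing the data. RBM10 passed the threshold with DESeq2 (-1.27) and without sh-NC replicate 2 (-1.42). The other 7 eIF4 genes kept their direction in each of 14 alternatives. No paired analysis was possible because the columns of libraries B and C carry no replicate number. With 3 libraries a group, the standard errors of the eIF4 genes lay between 0.21 and 0.51 (log2), and smaller differences could not be resolved. Larger ones also missed the threshold by edgeR. Examples are 1.05 for EIF4A2 (SE 0.30, adjusted p = 0.153) and 1.35 for EIF4G3 (SE 0.51, adjusted p = 0.175).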
